A study of Mus musculus with 6 samples.

Results

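The 33 genes described here make, sense, carry, store or export cholesterol, and were followed on arrays of mouse testis with and without TAp73. They were chosen by name from a list of cholesterol genes: 18 enzymes of the synthesis pathway, 5 regulators of the SREBP transcription factors, 3 carriers inside the cell, 5 genes of efflux and its LXR control, and 2 genes of cholesteryl ester storage. Probes were assigned through the transcript accession printed on the array. All 33 genes had at least 1 tested probe, 43 probes in all, among 16947 measured genes.

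Whole testes were compared between 3 TAp73 knockout and 3 wild type male C57BL/6J mice aged 10 weeks, with 1 array per mouse. TAp73 denotes the transcripts of Trp73 that encode the full, transactivating p73 protein, a member of the p53 family. The sources used here do not say how the knockout allele was built or whether the wild types were littermates. Because whole organs were profiled, fewer cells of a type and less RNA per cell cannot be told apart in any result that follows.

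Cells make cholesterol from acetyl-CoA through mevalonate, isoprenoids, squalene and lanosterol. When sterols run low, SCAP carries SREBP proteins from the endoplasmic reticulum to the Golgi for activation, while INSIG proteins hold the pair back when sterols are plentiful. Excess sterol works through the LXR receptors, which switch on exporters such as ABCA1 and ABCG1. In testis, Leydig cells use cholesterol for androgens, Sertoli cells take up lipid from the residual bodies and dying germ cells they engulf, and germ cells carry synthesis intermediates of their own. Lipe, which frees cholesterol and fatty acids from esters, is required for male fertility in mice.

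Levels are given as scaled signal, the background-subtracted spot signal as a percentage of the 75th percentile of its own array, so that arrays can be compared for 1 probe but probes cannot be compared with each other. Differences are log2 values, knockout minus wild type, tested with limma over all 31801 tested probes and called at a Benjamini-Hochberg adjusted p under 0.05. Each gene was counted by its brightest tested probe with a value on every array. The arrays lay on 2 slides, with 2 arrays per group on slide 1 and 1 per group on slide 2. Normexp, named below where it moves a value, is another background correction, applied to the raw spot signals.

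Probes well above background made up 74.4% to 84.4% of each array, and within-group correlations were 0.987 to 0.996. The log2 75th percentile of the wild type arrays exceeded that of the knockouts by 0.26, and the median difference over all measured genes was 0.05. Trp73 itself was lower in every knockout: the probe with the largest fall read 10.6, 10.6 and 10.8 in wild type and 0.333, 0.116 and 0.118 in the knockouts (adjusted p = 0.00369). That probe was well above background on 1 of the 3 knockout arrays. The other probes of Trp73 differed by -3.21 (adjusted p = 0.00213) and -0.99 (adjusted p = 0.0104). The probe with the smallest fall was well above background on all 3 knockout arrays and 1.99-fold lower. In the authors' value table the arrays carry the opposite group labels, and fitted under those labels 0 members were lower and 2 higher. The tissue label fitted the germ cell markers, since all 14 markers of elongating spermatids were measured, 13 of them saturated on at least 1 array.

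Few of the cholesterol genes passed the test. Of the 33 members, 2 fell, Apoe and Ebp, 0 rose and 31 did not pass. Over all measured genes 3.53% were called lower and 0.218% higher. Before adjustment, limma gave p-values under 0.05 for 7 members on the lower side and 4 on the higher, where the shares of all genes were 13.6% and 12%. All knockouts lay below all wild types for 8 members and above them for 4, beside 16% and 19.2% of all genes. The difference was above 0 for 15 members, against 57.8% of all genes, and the median over the members was -0.01. By role it was 0.05 over the synthesis enzymes, -0.14 over the SREBP regulators and -0.21 over the genes of transport, efflux, LXR control and storage together. The median of the 5 SREBP regulators is the value of Insig2, which was low on 1 knockout array and whose other probe differed by 0.06.

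**Figure D1:**
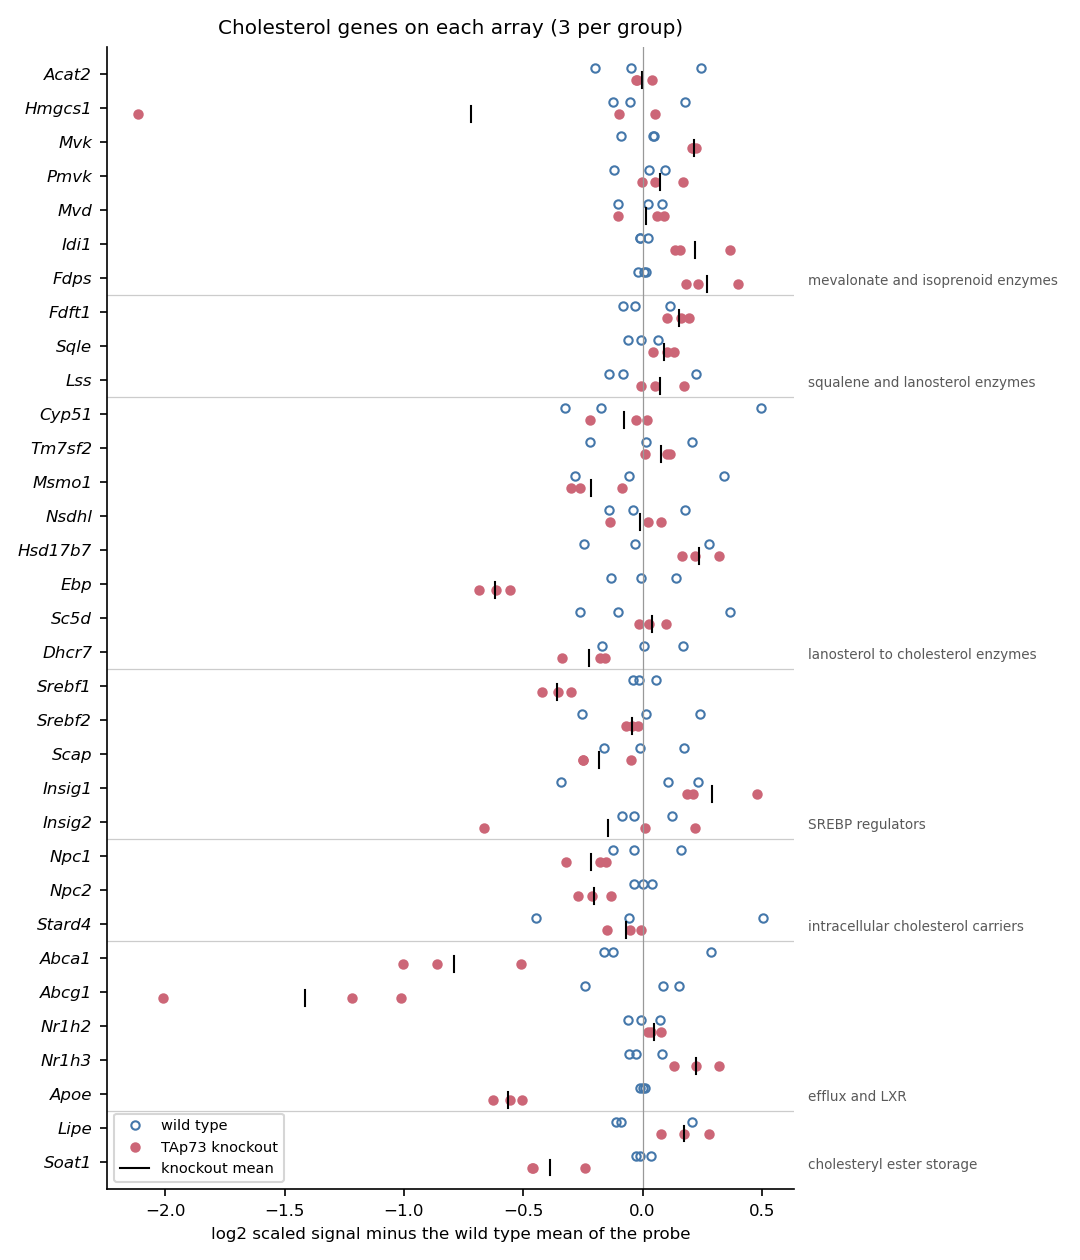
Log2 scaled signal of each member on each of the 6 arrays, relative to the wild type mean of its probe (open circles wild type, filled circles TAp73 knockout, bars knockout means), grouped by role. The knockout points of Apoe, Ebp, Abca1, Abcg1, Srebf1, Npc1, Npc2 and Soat1 lie below all wild type points. Those of Mvk, Idi1, Fdps and Nr1h3 lie above them. The shares of all measured genes were 16% below and 19.2% above. Most synthesis enzymes overlap, and 1 knockout array stands apart for Hmgcs1.

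Promoters are shown for the member with a match to the sterol regulatory element TCACCCCAC, a sequence SREBP binds. Also shown are the 3 members with the smallest p among those with an entry in the promoter table, which include both genes that fell. Abcg1, whose p was smaller than that of Srebf1, has no entry in it. Of the 33 members 27 had an entry in the RefSeq promoter table (build GRCm38.p6), with 39 promoters of 300 bases, from 250 before to 50 after a start site. Each is printed 5′ to 3′ along the gene. Capitals mark the sterol regulatory element TCACCCCAC, the CCAAT box and the E-box CACGTG on either strand, so that a CCAAT box on the other strand reads ATTGG. They are Hmgcs1 at chr13:119690101-119690400, plus strand, Apoe at chr7:19698349-19698648, minus strand, Ebp at chrX:8193463-8193762, minus strand and Srebf1 at chr11:60210422-60210721, minus strand. Apoe and Srebf1 each have 3 promoters in the table, and the most downstream one is shown.
Hmgcs1: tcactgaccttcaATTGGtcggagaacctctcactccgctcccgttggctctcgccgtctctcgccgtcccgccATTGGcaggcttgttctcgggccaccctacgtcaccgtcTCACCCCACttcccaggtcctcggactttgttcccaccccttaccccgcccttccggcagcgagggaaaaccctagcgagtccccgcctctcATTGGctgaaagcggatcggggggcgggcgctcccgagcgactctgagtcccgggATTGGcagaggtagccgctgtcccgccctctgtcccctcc
Apoe: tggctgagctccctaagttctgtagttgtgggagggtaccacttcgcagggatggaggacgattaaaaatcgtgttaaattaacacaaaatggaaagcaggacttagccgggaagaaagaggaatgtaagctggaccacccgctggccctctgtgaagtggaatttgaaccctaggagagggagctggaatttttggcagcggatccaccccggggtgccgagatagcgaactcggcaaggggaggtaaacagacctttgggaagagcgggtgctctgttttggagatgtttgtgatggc
Ebp: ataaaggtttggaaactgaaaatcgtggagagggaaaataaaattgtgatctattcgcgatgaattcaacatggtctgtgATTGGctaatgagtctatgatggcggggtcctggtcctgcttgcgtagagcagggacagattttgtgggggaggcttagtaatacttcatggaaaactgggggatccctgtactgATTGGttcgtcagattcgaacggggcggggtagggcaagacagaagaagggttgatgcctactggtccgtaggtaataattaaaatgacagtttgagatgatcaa
Srebf1: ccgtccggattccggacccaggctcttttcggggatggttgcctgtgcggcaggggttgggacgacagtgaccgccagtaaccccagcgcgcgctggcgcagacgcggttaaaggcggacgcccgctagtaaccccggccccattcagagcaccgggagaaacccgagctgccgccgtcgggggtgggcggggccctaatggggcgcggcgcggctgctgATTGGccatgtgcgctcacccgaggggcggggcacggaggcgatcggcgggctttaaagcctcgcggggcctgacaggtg

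Among the 27 members with an entry, only Hmgcs1 had TCACCCCAC in its window, 137 bases before the start. The relaxed form TCACNCCAC, which contains it, added no other gene. The 6 members without an entry, elements spelled otherwise and elements outside the windows were not examined. The strict form was found in 0.551% of all 32841 promoters and the relaxed form in 1.24%. CCAAT, bound by the SREBP partner NF-Y, was present in 53.8% of member promoters and 37.4% of all promoters, on either strand. The Ebp window holds 2 such boxes and the Hmgcs1 window 4. GC boxes (GGGCGG) were in 69.2% of member promoters against 35.7% of all. E-boxes were in 20.5% against 7.15%, and the cAMP response element core TGACG was in 28.2% against 20.8%. The p53 family decamer was matched in 15.4% of member promoters and 8.36% of all, and the matches were in Dhcr7, Hmgcs1, Nsdhl, Sc5d and Scap. The LXR direct repeat, AGGTCA repeated after 4 bases, was in 0 member promoters and in 0.0152% of all. The Apoe window holds none of the capitalised motifs. These matches are descriptions of letters in short windows.

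None of the 7 early enzymes, from acetyl-CoA to isoprenoids, was called, and all but Hmgcs1 differed by less than 0.3. Fdps, which makes farnesyl diphosphate, the branch point to sterols and other isoprenoids, read 594, 597 and 583 in wild type and 669.9, 695 and 779.9 in the knockouts, a difference of 0.27 (SE 0.08, adjusted p = 0.137). All knockouts lay above all wild types. Idi1, the isopentenyl diphosphate isomerase, read 253, 248 and 247 against 321, 278 and 274 (0.22, adjusted p = 0.205). Mevalonate kinase, Mvk, read 89.3, 98.1 and 98.4 against 110.2, 109.95 and 111 (0.22, adjusted p = 0.163), and its other probe differed by 0.30 (adjusted p = 0.133). These 3 are the synthesis enzymes whose knockouts were all above the wild types. Each stayed above 0 under every setting run on the scanner files, and under quantile normalization they gave 0.17, 0.16 and 0.21. Every such setting rescales the arrays, and the log2 75th percentile was 0.26 lower in the knockouts. Signals before scaling were not tested. Of the rest, Pmvk, the next kinase, differed by 0.07, Mvd, the mevalonate diphosphate decarboxylase, by 0.02, and Acat2, which joins acetyl-CoA units, by -0.00316.

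Hmgcs1, the cytosolic HMG-CoA synthase and the gene with the sterol regulatory element match above, was set by 1 array. It read 269, 315 and 256 in wild type and 64.4, 289 and 260.4 in the knockouts. Knockout replicate 1 lay far below all others, and replicates 2 and 3 lay within the wild type range. The difference was -0.72 with an SE of 0.57 (adjusted p = 0.456, 95% interval -2.09 to 0.65), and -0.02 without that array.

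The enzymes of squalene and lanosterol synthesis did not differ beyond their spread. Fdft1, which joins farnesyl units into squalene, read 1055, 1166 and 1017 in wild type and 1158, 1204 and 1234 in the knockouts (0.15, adjusted p = 0.29), and its spots were saturated on 2 arrays. Squalene epoxidase, Sqle, differed by 0.09 (95% interval -0.08 to 0.26), and lanosterol synthase, Lss, by 0.07 (-0.21 to 0.36). For each of the 3 genes the groups overlapped.

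Among the 8 enzymes from lanosterol to cholesterol 1 fell, Ebp, the sterol isomerase that moves the ring double bond. It read 183, 202 and 167 in wild type and 114, 125 and 119.8 in the knockouts, so that every knockout lay below every wild type. The difference was -0.62 (SE 0.09, adjusted p = 0.0297), or 1.53-fold lower. It was -0.55 within slide 1 (adjusted p = 0.368) and -0.75 in the slide 2 pair. With slide as a block the call was lost (adjusted p = 0.0627), and leaving out any of the 6 arrays ended it too, with differences of -0.69 to -0.55 and adjusted p = 0.0571 to 0.112.

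The other 7 enzymes of this stretch were not called. Dhcr7, which acts after it, differed by -0.22 (95% interval -0.49 to 0.04) and Sc5d, the desaturase between them, by 0.04 (-0.36 to 0.44). Msmo1, the C-4 methyl oxidase, differed by -0.22 and Cyp51, the lanosterol demethylase, by -0.08. Hsd17b7, a sterol ketoreductase, differed by 0.23 and Tm7sf2, a sterol reductase, by 0.08. Ebp and Nsdhl, the dehydrogenase that works with Msmo1, are the members on the X chromosome. Nsdhl differed by -0.01 on its brighter probe and -0.32 on the dimmer one (adjusted p = 0.192), and neither was called. Of the 17 synthesis enzymes that were not called, 14 had a 95% interval that stayed within 1.5-fold either way. The intervals of Hmgcs1, Msmo1 (-0.62 to 0.19) and Cyp51 (-0.61 to 0.45) reached further on the lower side, and that of Hmgcs1 on the higher side too.

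**Figure D2:**
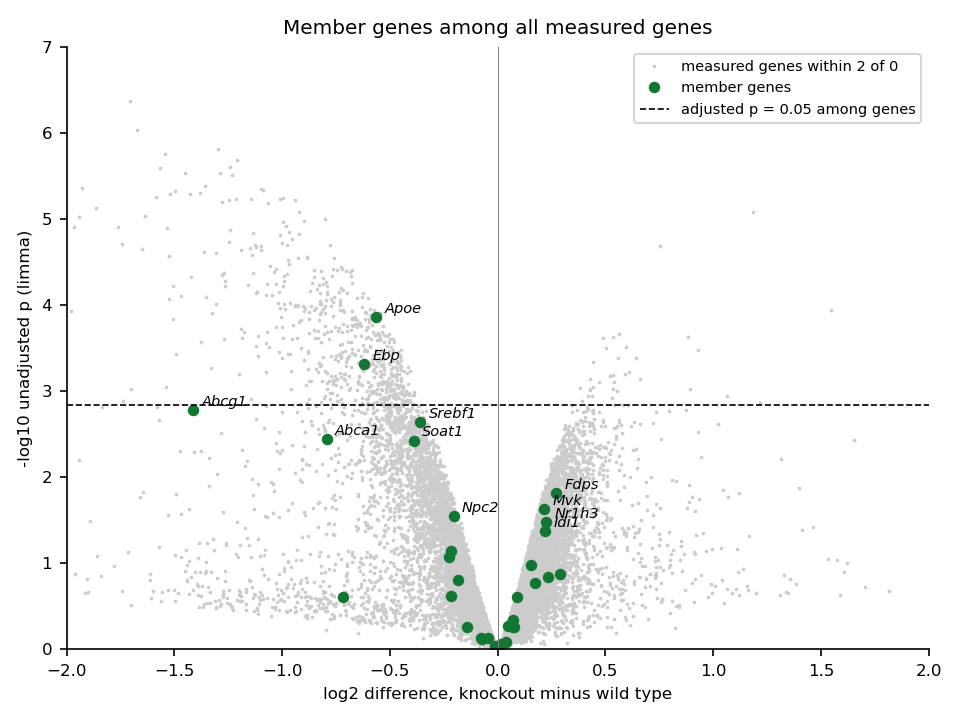
Difference of each gene (x axis, log2, knockout minus wild type) against its unadjusted limma p (y axis, -log10), for measured genes within 2 of 0 (grey) and the 33 members (green), with members at an unadjusted p under 0.05 named. Apoe and Ebp lie above the dashed line that marks an adjusted p of 0.05, and Abcg1 lies just under it.

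No regulator of SREBP was called. Srebf1, which encodes the SREBP form that drives fatty acid genes and is itself an LXR target, read 1.67, 1.78 and 1.69 in wild type and 1.34, 1.28 and 1.39 in the knockouts. The groups did not overlap (-0.36, SE 0.07, adjusted p = 0.0621). It was a dim probe, and under normexp background correction the difference was 0.56 (adjusted p = 0.551). Srebf2, the form that drives synthesis enzymes, differed by -0.04 (95% interval -0.36 to 0.27) and Scap, the escort of both, by -0.18.

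The INSIG genes, whose products retain SCAP, gave mixed values. Insig1 read 2.08, 3.09 and 2.83 in wild type and 3.04, 3.66 and 2.99 in the knockouts (0.29, adjusted p = 0.328), and the groups overlapped. Insig2 read 206 in knockout replicate 1 and 308 to 380.5 on the other arrays (-0.14, adjusted p = 0.713). Its other probe, which carries a different transcript accession, differed by 0.06.

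The exporters Abcg1 and Abca1 had the largest differences of all members but were not called, while Apoe was. Apoe, the lipoprotein component that accepts cholesterol from exporters, fell. It read 882, 889.6 and 895 in wild type and 625, 576 and 605 in the knockouts, 1.48-fold lower (-0.56, SE 0.07, adjusted p = 0.0164). The 3 wild types were close together and all 3 knockouts lay below them. The difference was -0.57 within slide 1 (adjusted p = 0.338) and -0.56 in the slide 2 pair. With slide as a block the adjusted p was 0.0531, and without 1 array it was 0.0354 to 0.091, past the threshold without knockout replicate 1 and missing it without any of the other 5.

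For Abcg1 and Abca1 the spread between arrays was wider. Abcg1, which moves sterol to lipoprotein particles, read 12.2, 9.31 and 11.7 in wild type and 2.73, 4.72 and 5.45 in the knockouts, with no overlap (-1.41, SE 0.27, adjusted p = 0.0539, 95% interval -2.06 to -0.76). Without knockout replicate 1, its lowest array, the difference was -1.12 and was called (adjusted p = 0.0383). Under normexp it was -0.57. Abca1, which loads lipid onto poor lipoproteins, read 106, 145 and 109 against 83.6, 65.5 and 59.3 (-0.79, SE 0.18, adjusted p = 0.0748, interval -1.22 to -0.37). It was -0.54 within slide 1 and -1.29 in the slide 2 pair. Requiring signal on all 6 arrays reduced the number of probes tested, and 4 members were then called lower: Apoe, Ebp, Abcg1 (adjusted p = 0.0356) and Srebf1 (adjusted p = 0.0474).

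Neither LXR receptor that controls these exporters was called. Nr1h3, LXR alpha, read 129, 117 and 119.8 in wild type and 152, 143 and 134 in the knockouts (0.23, SE 0.08, adjusted p = 0.188), with all knockouts above all wild types; its other probe differed by 0.28 (adjusted p = 0.101). Nr1h2, LXR beta, differed by 0.05 (95% interval -0.13 to 0.22).

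No carrier or storage gene was called. Npc2, which takes cholesterol from lipoproteins inside lysosomes and hands it to Npc1, read 231, 219.7 and 226 in wild type and 187, 206 and 195 in the knockouts. The groups did not overlap (-0.20, SE 0.07, adjusted p = 0.177). Npc1 differed by -0.22 (adjusted p = 0.249) and Stard4, a carrier of sterol between membranes, by -0.07. Soat1, which esterifies cholesterol for storage, read 8.27, 8.54 and 8.17 against 7.04, 6.04 and 6.05, again without overlap (-0.39, SE 0.09, adjusted p = 0.0763; 0.01 under normexp). Lipe, which opposes it, read 183.5, 147 and 149 against 193, 179.6 and 168 and differed by 0.18 (adjusted p = 0.37).

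Several probes measured the same gene in 10 cases. In 7 of these all probes had 1 sign, and in 3, Pmvk, Insig2 and Stard4, the signs were opposite; none of these probes was called.

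The wider pathway was read from a list of 90 further cholesterol and SREBP genes, of which 86 were measured. Of these 7 fell, 0 rose and 79 did not pass, with a median of -0.09, where 3.53% of all measured genes were called lower and 0.218% higher. Before adjustment limma gave p-values under 0.05 for 22 on the lower side and 5 on the higher, beside 13.6% and 12% of all genes. Lipa, the lysosomal acid lipase that frees cholesterol from engulfed lipoproteins, had the largest fall: 15.3, 15.1 and 12.9 in wild type against 7.2, 6.35 and 6.66 in the knockouts, 2.14-fold lower (-1.10, SE 0.10, adjusted p = 0.00722). Leaving out any 1 array kept this call (adjusted p = 0.0173 to 0.0483). Normexp background correction gave -0.62 (adjusted p = 0.537). The slide 1 arrays alone gave -1.06 (adjusted p = 0.251) and the slide 2 pair -1.18.

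Apoc1, an apolipoprotein gene beside Apoe on chromosome 7 with 0 protein-coding genes between them in the RefSeq order, fell as well. It read 698, 770.4 and 680.2 in wild type and 408, 317 and 359 in the knockouts (-0.99, SE 0.11, adjusted p = 0.0147), 1.99-fold lower. Its difference was -0.94 within slide 1 (adjusted p = 0.311) and -1.10 in the slide 2 pair. Without 1 array the adjusted p was 0.0174 to 0.0773, past the threshold only without wild type replicate 1 or knockout replicate 1.

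The other falls described here were smaller. Pltp, which transfers phospholipid between lipoproteins, differed by -0.49 (adjusted p = 0.0462), the endocytic receptor Lrp1 by -0.52 (adjusted p = 0.0458), and Mylip, a ubiquitin ligase that removes lipoprotein receptors and is an LXR target, by -0.47 (adjusted p = 0.0495; -0.10 under normexp). Tspo, of the outer mitochondrial membrane, differed by -0.54 (adjusted p = 0.0414). In each of these genes, as in Lipa and Apoc1, all knockouts lay below all wild types, as they did for 16% of all measured genes. That order comes from the same values as the calls. Leaving out any 1 of the 6 arrays ended the calls of Tspo, Lrp1, Pltp and Mylip.

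By role, 1 of 8 other synthesis genes, 0 of 10 other SREBP pathway genes, 2 of 13 uptake receptors and their regulators, 1 of 16 other carriers, 2 of 14 other efflux, LXR and lipoprotein genes, 1 of 11 ester and oxysterol genes and 0 of 14 fatty acid targets of SREBP fell, and 0 in any of them rose. Over all measured genes 3.53% were called lower and 0.218% higher. The medians of these lists ran from -0.13 over the ester and oxysterol genes to 0.08 over the other carriers. Unadjusted limma p-values were under 0.05 for 3 of the fatty acid targets and 1 SREBP pathway gene, each on the lower side, and for 0 on the higher. Among the 16 other carriers they were under 0.05 for 4 on the lower side and 5 on the higher. The shares of all genes were 13.6% and 12%.

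**Figure D3:**
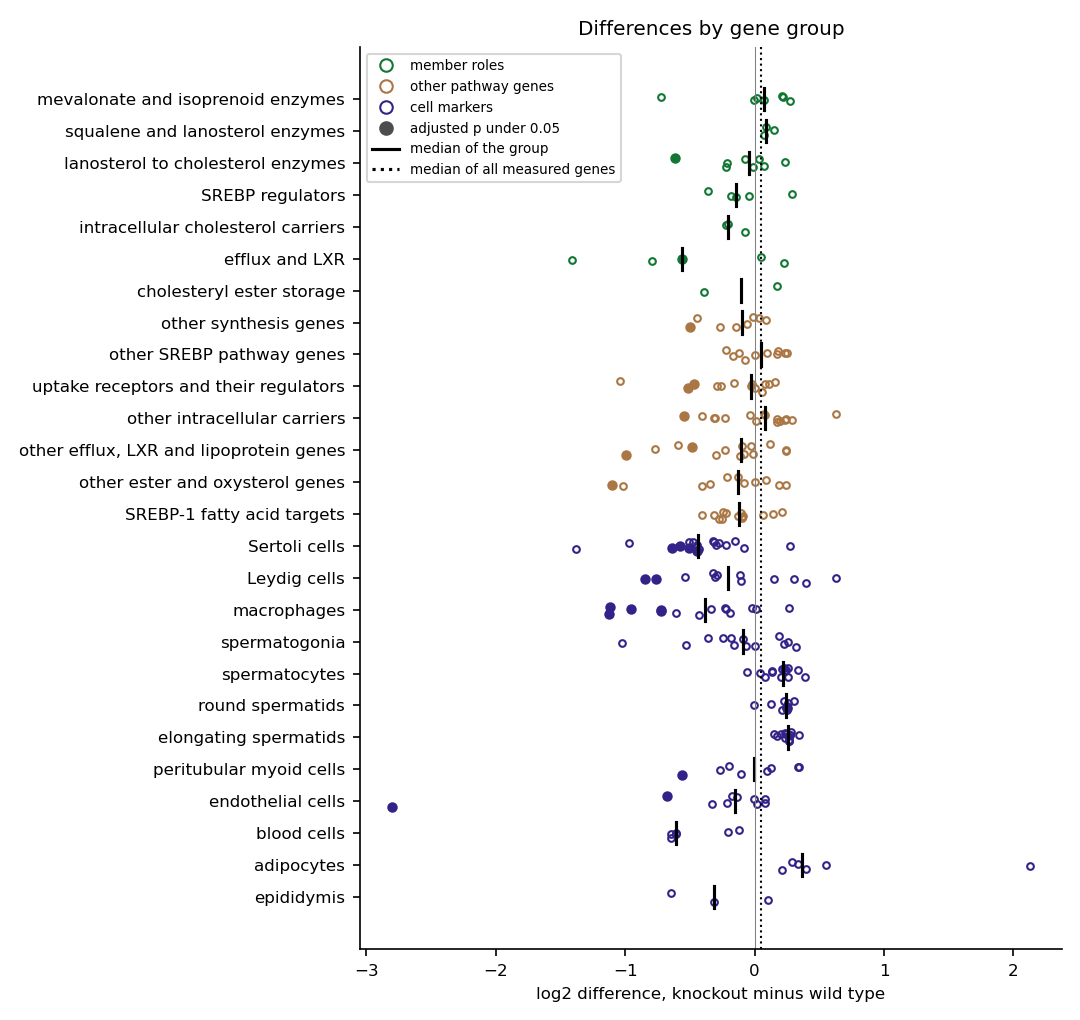
Log2 differences (knockout minus wild type) of single genes in the member roles, the other pathway lists and the cell marker lists; filled points passed an adjusted p of 0.05, bars are list medians and the dotted line is the median of all measured genes, 0.05. Efflux and LXR genes have the lowest median of the member roles, -0.56, which is the value of Apoe, and 2 of these 5 genes lie above 0. Medians of the marker lists run from -0.61 for blood cells to 0.37 for adipocytes, with Sertoli cells at -0.44 and macrophages at -0.38.

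Some markers of other testis cells were lower as well, though most did not pass the test. Over all measured genes 3.53% were called lower and 0.218% higher. Unadjusted limma p-values were under 0.05 for 13.6% on the lower side and 12% on the higher. Of 18 Sertoli cell markers 4 fell, 0 rose, and 17 had a difference below 0. Before adjustment limma gave p under 0.05 for 13 of the 18 on the lower side and 1 on the higher. The summed scaled signal of the 18 was 5231 to 5441 in wild type and 4401 to 4700.4 in the knockouts. Of 14 macrophage markers 5 fell and 0 rose, and 12 had a difference below 0. Their mean log2 level did not overlap, at -0.68 to -0.32 in wild type and -0.99 to -0.86 in the knockouts. Their summed scaled signal did overlap, at 2896 to 2927 and 2744 to 3109; Aif1, the largest share of that sum, was saturated on 5 arrays. Cd68 and Cd163 were not among the measured genes. Of 12 Leydig cell markers 2 fell and 0 rose, with 8 differences below 0 and 4 above. Before adjustment limma gave p under 0.05 for 3 on the lower side and for 1, Star (0.63), on the higher. Their sums overlapped, at 3802 to 5018 in wild type and 3407 to 4492 in the knockouts. Insl3 was not measured. No marker was called among 14 spermatocyte genes (median 0.22) or 12 round spermatid genes (median 0.24). Unadjusted limma p-values under 0.05 were found for 6 and 5 of them, each on the higher side, and for 0 on the lower. Of the 14 and 12 markers, 4 and 5 were saturated on at least 1 array. The scaled value of a saturated probe moves with the percentile that divides it. That percentile was 0.26 lower in the knockouts on the log2 scale, so no direction is read from the saturated markers. Among those at an unadjusted limma p under 0.05, Brdt (0.39), Spo11 (0.23), Hormad1 (0.21) and Sycp1 (0.20) of the spermatocyte genes had no saturated array. Neither did Spag16 (0.30), Agfg1 (0.26), Zpbp (0.25) and Acrv1 (0.21) of the round spermatid genes. In each list 1 marker had a difference below 0. The cause was not tested. The part of these cell types in the falls of Apoe, Ebp, Lipa and Apoc1 was not tested.

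**Figure D4:**
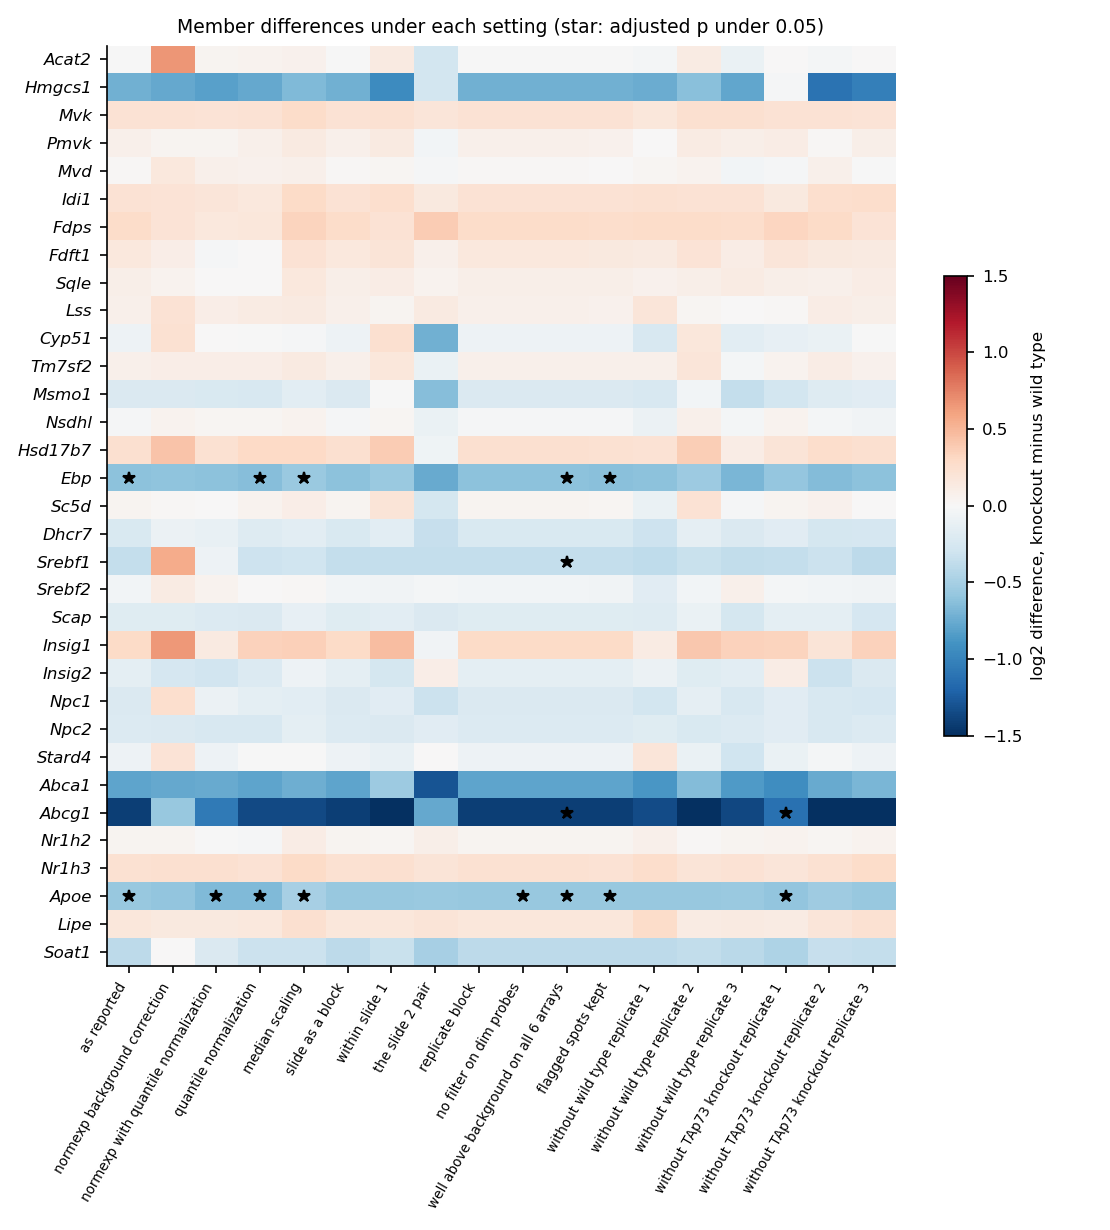
Log2 difference of each member (colour, knockout minus wild type) under each processing setting (columns), with a star where the adjusted p was under 0.05; values beyond 1.5 take the end colour. Abcg1, Abca1, Apoe, Ebp, Hmgcs1, Msmo1, Dhcr7, Scap and Npc2 were lower under every setting shown. Mvk, Idi1, Fdps, Sqle, Lss, Nr1h3 and Lipe were higher under every setting shown. Stars appear for Apoe, Ebp, Abcg1 and Srebf1.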

How the data were processed

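RNA of 6 testes was labelled with Cy3 and read on 1-colour Agilent arrays. The deposited scanner files hold linear spot intensity after background subtraction by Feature Extraction 10.7.3.1, per the file headers. The submitters' processing notes name limma without a version. The authors also deposited a value table of intensity, whose group labels oppose those of the scanner files: over probes, each array's deviations correlated at 0.968 to 0.994 with a column of the other group and at -0.40 to -0.27 with the column of its own label. The scanner files' labels were used.

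Control spots and spots marked as non-uniform or population outliers were dropped, log2 signals were averaged per probe, and the array's 75th percentile was subtracted. Probes well above background on at least 3 of 6 arrays, with at least 2 values per group, entered a two-sided test of group by lmFit and eBayes (limma 3.58.1, R 4.3.3), and p-values were adjusted over all 31801 probes. The procedure was tested on simulated data. The number of arrays limits the precision. Accessions were matched to RefSeq symbols of GRCm38.p6, which named 26055 of 39429 probes. The scanner files held no mean spot signal, so normexp (offset 50) used the median signal instead. Samples with the same replicate number did not deviate together (correlations -0.09 to -0.03), so numbers were not taken as pairs. Slide 1 held 2 arrays per group and slide 2 held 1.

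Members, lists and tests were chosen with earlier results of these data known. All members are named; array values are given for members called, for those at an unadjusted p under 0.05, and for the smallest p of each role; Hmgcs1, Insig1, Insig2 and Lipe were added after their values were seen. Of the other pathway genes those called are named, except 1 that is not reported here.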

Additional observations from a re-analysis of the deposited data

How the results depend on the processing

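Members called lower, 2 as reported, numbered 0 under normexp, 1 under normexp with quantile normalization, 0 with slide as a block, 0 within slide 1, 1 with no filter on dim probes, 4 with signal on all 6 arrays and 0 to 2 without 1 array. Other pathway genes called lower, 7 as reported, numbered 0, 3, 2, 0 and 2 in the first 5 of these, 2 with median scaling and 1 to 3 without 1 array. With the replicate block the counts were 0 and 0, a fit whose pairing the arrays did not bear out. In the authors' value table under its own labels 0 members were lower and 2 higher. No member or other pathway gene was called higher under any other setting run. Beyond the counts named, quantile normalization, kept outlier spots, all probes of a gene and removal of saturated genes left counts within 1.5 times those reported.

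The median over members, -0.01, was 0.10 under normexp, where that of all genes was 0.16, -0.10 in the slide 2 pair and -0.083 to 0.031 without 1 array, so its sign is not settled. Median scaling put that of all genes at 0.11. For synthesis enzymes (0.05) it was 0.13 within slide 1, -0.081 in the slide 2 pair and -0.023 to 0.12 without 1 array, below 0 only without wild type replicate 3. For SREBP regulators (-0.14) it was 0.13 under normexp and -0.048 in the slide 2 pair, and -0.22 to -0.031 without 1 array. For carriers, efflux, LXR and storage genes (-0.21) it was 0.024 under normexp, -0.15 under normexp with quantile normalization, -0.15 with median scaling, -0.25 in the slide 2 pair and -0.26 to -0.17 without 1 array. The cause was not tested.

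Signs turned for some members, many of them near 0 or dim. Under normexp they were Acat2 (0.66), Cyp51 (0.23), Nsdhl (0.049), Srebf1 (0.56), Srebf2 (0.13), Npc1 (0.25), Stard4 (0.21) and Soat1 (0.0082). Under normexp with quantile normalization they were Acat2 (0.038), Fdft1 (-0.013), Cyp51 (0.00174), Nsdhl (0.025), Srebf2 (0.054) and Nr1h2 (-0.00553). Under quantile normalization they were Acat2 (0.054), Nsdhl (0.025), Srebf2 (0.011) and Nr1h2 (-0.023). With median scaling they were Acat2 (0.059), Nsdhl (0.0498) and Srebf2 (0.019), and within slide 1 Acat2 (0.13), Cyp51 (0.24) and Nsdhl (0.032). In the slide 2 pair they were Pmvk (-0.044), Mvd (-0.021), Tm7sf2 (-0.10), Hsd17b7 (-0.059), Sc5d (-0.27), Insig1 (-0.048), Insig2 (0.10) and Stard4 (0.00652). Without 1 array the ranges crossed 0 for Acat2 (-0.10 to 0.12), Mvd (-0.037 to 0.075), Cyp51 (-0.24 to 0.17), Tm7sf2 (-0.034 to 0.18), Nsdhl (-0.083 to 0.077), Sc5d (-0.094 to 0.22), Srebf2 (-0.17 to 0.077), Insig2 (-0.33 to 0.12) and Stard4 (-0.29 to 0.18).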

Other observations

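Other marker lists bear on the tissue rather than on cholesterol. For comparison, 3.53% of all measured genes were called lower and 0.218% higher, and 13.6% and 12% had unadjusted limma p-values under 0.05. Of 8 peritubular myoid markers 1 fell (median -0.00392), of 10 endothelial markers 2 fell (median -0.15), and of 13 spermatogonial markers 0 were called (median -0.09; unadjusted limma p-values under 0.05 for 2 lower and 1 higher). The 14 elongating spermatid markers had 0 calls and a median of 0.26, and 13 of them were saturated on at least 1 array. Of 6 blood cell markers 0 were called (median -0.61), with unadjusted limma p-values under 0.05 for 3, all lower. The 3 measured epididymis markers and the 6 adipocyte markers had 0 calls, with medians of -0.32 and 0.37; before adjustment limma gave p under 0.05 for 0 epididymis markers and 1 adipocyte marker, which was higher.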
